A study of Mus musculus with 2 samples.

Results

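The genes described here are the mouse replication-dependent histone cluster genes, taken as every row of the gene table whose symbol begins with Hist1h, Hist2h, Hist3h or Hist4h followed by a histone type, and which had at least 20 UMIs over both libraries. A UMI is a molecular barcode that marks 1 captured RNA molecule. Of 33456 genes in the table, 68 matched the name and 53 reached the threshold. The lowest member had 21 UMIs and the highest gene left out had 18, and the 15 genes left out held 109 UMIs together, with 5 of them at 0. The members were 5 genes of the linker histone H1, 13 of H2A, 15 of H2B, 8 of H3 and 12 of H4. By symbol, 45 of the 53 were named for Hist1, the cluster on chromosome 13.

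The data are droplet 5′ single-cell RNA libraries from the yolk sac of B6 mouse embryos, 1 library of genotype Baf155 CKO (KO in its title) and 1 of genotype wt (WT). For each genotype, yolk sacs of stages E9.5 and E10.5 were pooled in equal numbers, dissociated, frozen, and sorted to remove dead and Ter119-positive (mature erythroid) cells. No source used here names the Cre driver, the deleted part of the gene or the number of embryos, cells carry no stage, and the labels speak of nuclei while the protocol describes live cells. With 1 library per genotype there is no replicate and no test, and genotype cannot be told apart from library, sort or embryo. The 95% intervals given below, Poisson for levels and conditional binomial for ratios, cover counting error only, and UMIs from the same cell are correlated.

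Histones package DNA into nucleosomes, in which a core of H2A, H2B, H3 and H4 is wrapped by DNA and H1 binds at the entry and exit of the strand. The genes of the Hist clusters are mostly without introns and are switched on in S phase, when new chromatin needs new histones. Their messages usually end in a conserved stem-loop that is bound by the protein Slbp, and most carry no poly(A) tail. A library primed on poly(A), as labelled here, therefore counts the fraction of these messages that is polyadenylated or captured by other priming, so shares of UMIs are not shares of histone RNA. A UMI marks 1 molecule near its 5′ end whatever the length of the transcript, and no value here was divided by length.

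Smarcc1, which encodes the chromatin remodelling subunit Baf155, stood at 24.1 CPM (UMIs of the gene per 1000000 UMIs; 22.2 to 26.0) in the CKO library and at 94.6 CPM (90.8 to 98.6) in the WT library. The CKO library held 27314411 UMIs in 865 barcodes (6328 to 96471 each) and the WT library 24538853 UMIs in 815 barcodes (6054 to 114332 each), and 1 barcode sequence was shared. After filtering, 841 CKO and 784 WT cells remained and were assigned to classes by marker genes. In CKO and WT there were 253 and 163 erythroid, 91 and 177 blood progenitor, 60 and 53 endothelium and 285 and 249 stromal cells, which are compared below. Megakaryocyte (68 and 6), macrophage (10 and 41) and endoderm cells (3 and 31) were too few in 1 library and are given as levels, and 71 CKO and 64 WT cells met no class. In these 4 classes the markers of mast, neural and lymphoid cells summed to at most 8.47 CPM. Of the 4 trophoblast markers, Prl3d1 and Tpbpa were at 0 in all 4 classes, while the keratin gene Krt8 stood at 1380 CPM in CKO and 916 CPM in WT stromal cells, and Plac1 at 33.7 CPM in CKO and 239 CPM in WT endothelium. The megakaryocyte marker list summed to 655 CPM in CKO and 358 CPM in WT progenitors and to 747 and 284 CPM in endothelium, and the macrophage list to 557 and 408 CPM and to 234 and 242 CPM. The progenitor list summed to 1189 CPM in CKO and 607 CPM in WT endothelium. Their part in the results was not tested. Each class carried its own markers, which summed to 6129 CPM in CKO and 5247 CPM in WT erythroid, 3008 and 3143 in progenitor, 4553 and 7392 in endothelium, and 14398 and 14063 in stromal cells.

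The stem-loop was read from GENCODE transcripts to see whether the members carry it. Of the 53 members, 51 were found by gene ID, and 37 of the 51 had a stem-loop after the stop codon in at least 1 annotated transcript, against 14 of 21632 other protein-coding genes (0.0647%). Several of the 14 members without it have an annotation that stops at the stop codon, so its absence there says nothing of the RNA. Members with many UMIs of the types H1, H2A, H3 and H4 follow, to show how far the loop is shared, with the 16 bases of the stem and loop in capitals.
Hist1h1c: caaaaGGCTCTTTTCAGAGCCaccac
Hist1h1e: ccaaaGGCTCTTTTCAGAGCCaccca
Hist1h2ap: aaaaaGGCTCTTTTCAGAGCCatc
Hist1h2ae: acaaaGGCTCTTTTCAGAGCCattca
Hist3h2a: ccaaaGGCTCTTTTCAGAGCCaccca
Hist1h3c: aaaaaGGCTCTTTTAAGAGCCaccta
Hist1h4i: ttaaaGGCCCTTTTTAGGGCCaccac
Hist1h4d: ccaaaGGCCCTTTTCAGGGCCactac
The printed H1 and H2A genes share 1 loop sequence, the printed H3 gene differs from it within the loop, and both H4 genes differ from it in the stem. The H3 difference is not one of the type. Hist1h3a and Hist1h3b, and the H2B gene Hist1h2bj, had the sequence of the printed H1 and H2A genes. Hist1h3e and the H2B gene Hist1h2bb had that of Hist1h3c. Annotated RNA went on for 3 bases after the loop in Hist1h2ap, 151 in Hist1h2ae, 330 in Hist1h4i, 840 in Hist1h1c and 1643 in Hist3h2a. Hist1h2bc was not among the 37. No match was found after the stop codon of its only annotated transcript, which has 2 exons.

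A few genes carried most of the counts. The 6 members above 1000 UMIs held 76.0% of the 30687 member UMIs, and 28 members had fewer than 100. Hist1h2ap, an H2A gene, had 10280 UMIs in CKO and 1901 in WT, which is 71.8% of H2A and 39.7% of all member UMIs. Hist1h2bc had 1231 and 1530 UMIs and held 69.9% of H2B, and Hist1h4i had 1894 and 1510 UMIs and held 68.5% of H4. Hist1h2ae, the next H2A gene, had 1666 UMIs in CKO and 786 in WT. H1 was spread over Hist1h1e (35.4% of its UMIs), Hist1h1c (30.7%) and Hist1h1b (21.8%), and H3, the type with fewest UMIs (3.22% of the total, against 55.3% for H2A), over Hist1h3c (42.2%) and Hist1h3e (18.9%).

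How well reads can be told apart differs among these genes. Hist1h2ap (ENSMUSG00000094777) is 1 exon at chr13:21833026-21833507 on the minus strand of GRCm38 and overlaps the predicted gene Gm44466. Of its windows of 50 bases, 93.1% also occur in Hist1h2ao, which had 17 UMIs in all, so the split of UMIs between them is uncertain. The share of 50-base windows found in another gene was 43.2% in Hist1h2ae (chr13:23570517-23571220, minus), 28.9% in Hist1h4i (chr13:22040636-22041362, minus), 30.6% in Hist1h2bc (chr13:23684199-23692908, plus) and 0 in Hist1h1b (chr13:21779883-21780625, minus), with a median of 47.0% over the members.

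Summed over all members, histone RNA was higher in the CKO cells of all 4 classes. In erythroid cells it stood at 1005 CPM (985 to 1026) in CKO and 574 CPM (555 to 594) in WT, and in stromal cells at 675 CPM (656 to 695) and 300 CPM (286 to 315). In endothelium it was 695 CPM (657 to 734) in CKO and 306 CPM (271 to 344) in WT, with fewer UMIs per cell in WT (median 13207, against 29522 in CKO). In progenitors it was 523 CPM (502 to 546) in CKO and 394 CPM (379 to 409) in WT. The CKO over WT ratios were 1.75 in erythroid, 1.33 in progenitor, 2.27 in endothelium and 2.25 in stromal cells. Much of this was 1 gene. Without Hist1h2ap, a choice made after seeing the data, the ratios were 0.908 (0.865 to 0.953), 1.06 (0.995 to 1.14), 1.44 (1.24 to 1.67) and 1.33 (1.24 to 1.42), so that the erythroid total turned from higher to lower in CKO.

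**Figure D1:**
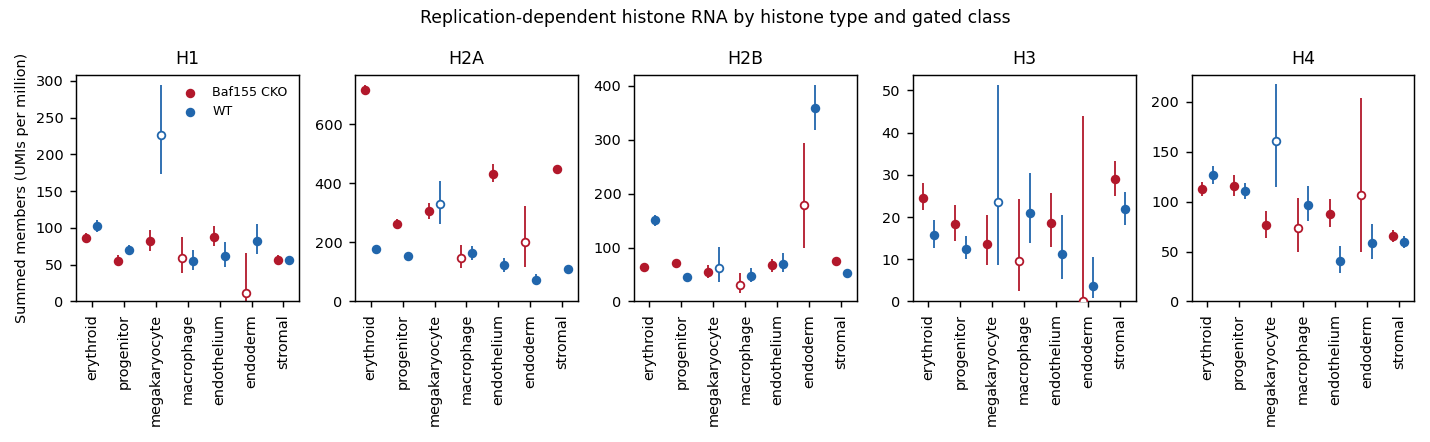
Level of each histone type, in summed CPM of its members (y axis, linear, from 0, with its own range in each panel), by gated class (x axis), with Baf155 CKO in red on the left and WT in blue on the right of each pair. Points are library sums, bars 95% Poisson intervals, and open points rest on fewer than 20 cells; H2A is above WT in CKO erythroid (718 and 178 CPM), endothelium (433 and 122) and stromal cells (448 and 110), and H2B is highest in WT endoderm (359 CPM).

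The histone types did not move together. H2A was higher in CKO in every class compared, at 718 CPM in CKO and 178 CPM in WT erythroid cells, 448 and 110 CPM in stromal cells, 433 and 122 CPM in endothelium and 263 and 155 CPM in progenitors. Without Hist1h2ap the H2A ratio was 1.80, 1.74 and 1.47 in erythroid, stromal and endothelium cells, and 0.986 (0.850 to 1.14) in progenitors. H2B went both ways, with a CKO over WT ratio of 0.418 (0.376 to 0.464) in erythroid, 0.951 (0.696 to 1.31) in endothelium, 1.42 (1.23 to 1.64) in stromal and 1.54 (1.31 to 1.80) in progenitor cells. Of the H2B UMIs, Hist1h2bc held 401 of 594 in CKO and 727 of 896 in WT erythroid cells. It held 93 of 123 and 45 of 63 in endothelium, 354 of 532 and 169 of 309 in stromal cells, and 196 of 298 and 171 of 324 in progenitors. The H2B ratios thus rest in large part on this 1 gene. H1 was at 0.845 (0.760 to 0.94) in erythroid, 0.798 (0.680 to 0.934) in progenitor, 1.02 (0.876 to 1.18) in stromal and 1.41 (1.03 to 1.94) in endothelium cells. H4 had ratios of 0.892 (0.811 to 0.980) in erythroid, 1.04 (0.929 to 1.17) in progenitor, 1.10 (0.958 to 1.27) in stromal and 2.19 (1.52 to 3.24) in endothelium cells. H3, with few counts, was at 1.57 in erythroid, 1.46 in progenitor, 1.33 in stromal and 1.66 in endothelium cells, where its interval (0.8 to 3.76) included 1.

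Counts of single members were read against the share of all genes past the same 1.5-fold difference among genes with 20 UMIs over both libraries in the class. In erythroid cells 10 of 36 measured members were higher in CKO (background 19.4% of genes) and 8 were lower (9.84%). In progenitors 9 of 28 were higher (background 14.1%) and 8 lower (9.84%). In endothelium 5 of 9 were higher (background 14.0%) and 1 lower (20.1%), and in stromal cells 14 of 34 were higher (14.0%) and 3 lower (11.2%). The median log2 ratio of the members was 0.11, 0.27, 0.70 and 0.42 in erythroid, progenitor, endothelium and stromal cells, beside 0.10, 0.02, -0.08 and -0.02 for all genes measured. In erythroid and progenitor cells the members thus lay on both sides, while the higher stromal members were mostly H2A genes (8 of its 10 measured). Many members rest on few UMIs, and with 100 UMIs required in the class the counts were 4 higher and 2 lower of 14 in erythroid cells (background 13.1% and 7.11% of genes) and 3 and 2 of 9 in progenitors (8.96% and 6.0%). They were 3 and 0 of 4 in endothelium (9.34% and 14.8%) and 4 and 0 of 10 in stromal cells (8.95% and 9.1%). At a 2-fold limit with 20 UMIs, 6 were higher and 6 lower of 36 in erythroid cells (background 8.02% and 4.34%) and 6 and 5 of 28 in progenitors (5.93% and 4.13%). In endothelium 4 and 0 of 9 passed it (6.33% and 8.44%), and in stromal cells 7 and 1 of 34 (6.2% and 3.66%).

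**Figure D2:**
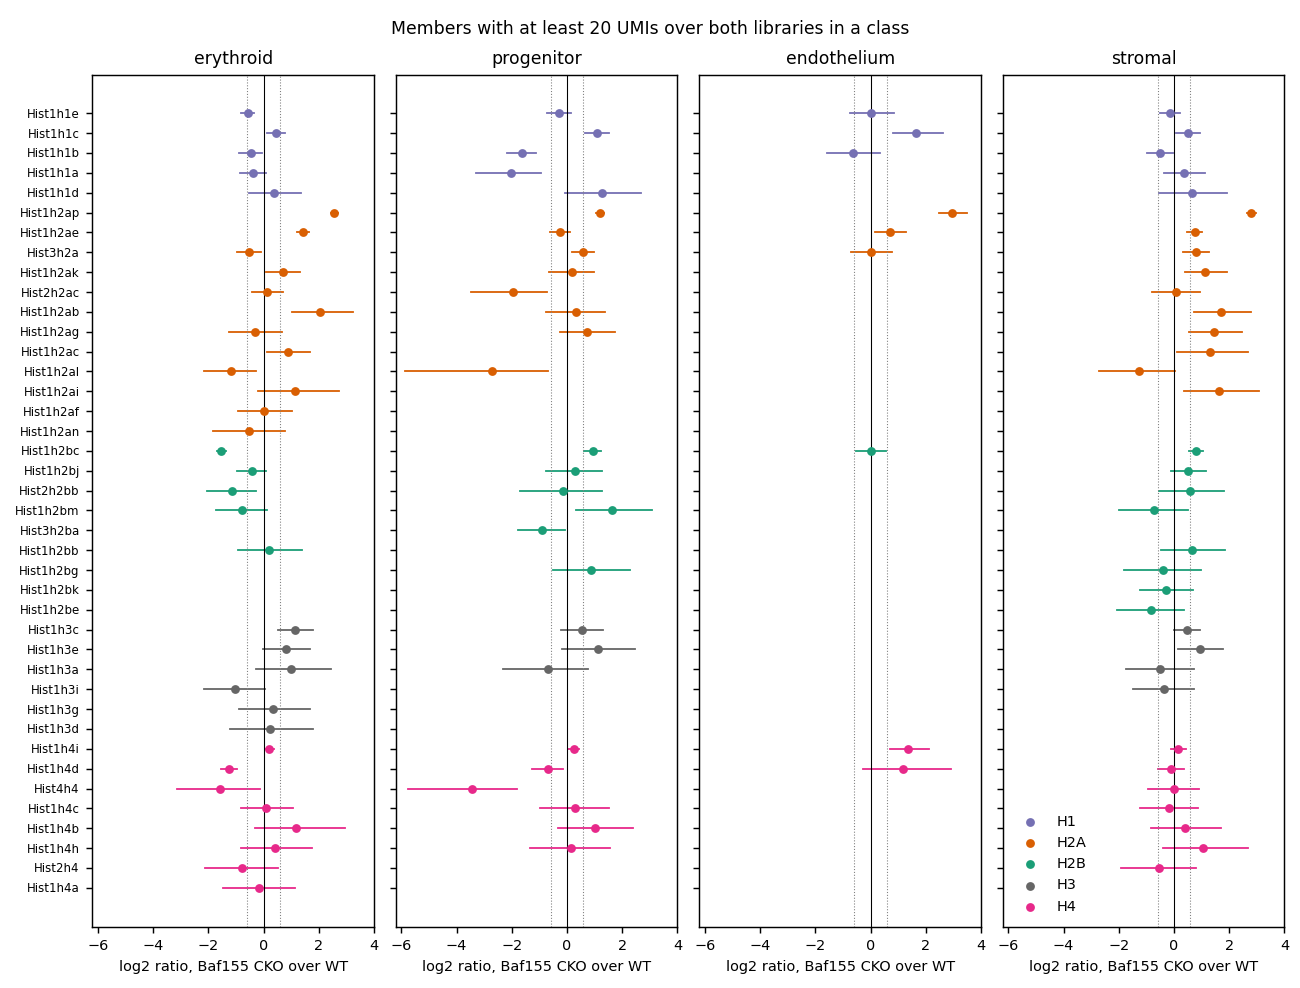
CKO over WT ratio of each member on a log2 scale (x axis) in the 4 classes (panels), for members with at least 20 UMIs over both libraries in the class; points are ratios of library sums, bars 95% conditional binomial intervals, colours histone types, the solid line is no difference and dotted lines mark 1.5-fold. Hist1h2ap lies to the right in all 4 panels (ratios 5.92, 2.29, 7.80 and 6.99), while Hist1h2bc lies left in erythroid (0.347) and right in progenitor and stromal cells (1.91 and 1.73).

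Among the H2A genes, Hist1h2ap had 572 CPM (557 to 587) in CKO and 96.6 CPM (88.9 to 105) in WT erythroid cells, a ratio of 5.92 (5.43 to 6.46). In stromal cells it had 341 CPM (327 to 355) in CKO and 48.8 CPM (43.2 to 54.8) in WT, and in endothelium 313 CPM (288 to 340; 577 UMIs) in CKO and 40.2 CPM (28.1 to 55.6; 36 UMIs) in WT. The ratios were 6.99 (6.18 to 7.94) and 7.80 (5.57 to 11.3). Progenitors had the smallest difference of the 4 classes, with 194 CPM (181 to 208) in CKO, 84.5 CPM (77.9 to 91.6) in WT and a ratio of 2.29 (2.06 to 2.55). The number of genes with a higher ratio than Hist1h2ap was 66 of 8920 in erythroid, 406 of 10056 in progenitor, 46 of 8136 in endothelium and 71 of 11136 in stromal cells.

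The difference in Hist1h2ap was also seen in how many cells had it. With each cell thinned to 10000 UMIs, at least 1 Hist1h2ap UMI was seen in 81.9% (76.4 to 86.6, exact binomial interval) of CKO and 44.7% (36.6 to 53.0) of WT erythroid cells, and in 47.7% (41.6 to 53.9) of CKO and 28.5% (22.7 to 34.8) of WT stromal cells. In endothelium the shares were 50% (36.6 to 63.4) in CKO and 27.8% (14.2 to 45.2) in WT, and in progenitors 57.1% (46.3 to 67.5) and 44.9% (37.2 to 52.8). In both of these classes the intervals of the 2 libraries overlapped. Thinning left out 15 CKO and 13 WT erythroid, 0 and 10 progenitor, 2 and 17 endothelium, and 21 and 21 stromal cells that were shallower. Without thinning the shares were 89.3% and 75.5% in erythroid, 54.0% and 41.8% in stromal, 68.3% and 30.2% in endothelium and 81.3% and 76.3% in progenitor cells.

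Free RNA in droplets can carry messages of abundant cells into others. Globin UMIs made up 0.236% of the UMIs of CKO and 0.0337% of those of WT stromal cells, against 27.1% and 29.2% in erythroid cells. The share was 0.243% in CKO and 0.0475% in WT endothelium and 0.254% and 0.0424% in progenitors. Per 1000 globin UMIs, Hist1h2ap had 2.11 UMIs in CKO and 0.331 in WT erythroid cells, 145 and 145 in stromal cells, 129 and 84.5 in endothelium, and 76.3 and 199 in progenitors. In stromal cells both the Hist1h2ap level and the globin share were higher in CKO, and the count per globin UMI was equal in both libraries. In progenitors the count per globin UMI was lower in CKO. Such a count is not a level corrected for free RNA. In CKO it was 145 per 1000 in stromal cells and 2.11 in erythroid cells, where most globin UMIs lay. The part of free RNA in the Hist1h2ap difference was not tested.

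Other H2A genes were also higher in CKO in part of the classes. Hist1h2ae had 95.3 CPM in CKO and 35.4 CPM in WT erythroid cells (ratio 2.69, 2.31 to 3.14), 53.7 and 32.0 CPM in stromal cells (1.68, 1.40 to 2.01) and 65.7 and 40.2 CPM in endothelium (1.64, 1.12 to 2.44). In progenitors it had 24.0 CPM in CKO and 28.7 CPM in WT, and the interval of the ratio (0.651 to 1.07) included 1. Hist1h2ab, a gene with fewer counts, had 59 CKO and 9 WT UMIs in erythroid cells (ratio 4.13, 2.03 to 9.47) and 43 and 11 UMIs in stromal cells (3.23, 1.64 to 6.94). Hist3h2a, from the small cluster on chromosome 11, had 9.67 CPM in CKO and 14.0 CPM in WT erythroid cells but 24.7 and 16.5 CPM in progenitors, 17.1 and 9.85 CPM in stromal cells, and 27.2 and 26.8 CPM in endothelium. With only the CKO progenitors that had 0 Smarcc1 UMIs, its log2 ratio there was -0.32, below WT.

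Among the H2B genes, Hist1h2bc had 42.6 CPM (38.5 to 47.0) in CKO and 123 CPM (114 to 132) in WT erythroid cells, a ratio of 0.347 (0.307 to 0.393). In progenitors it had 46.5 CPM (40.2 to 53.5) in CKO and 24.3 CPM (20.8 to 28.2) in WT, and in stromal cells 50.5 CPM (45.4 to 56.1) and 29.2 CPM (25.0 to 34.0), with ratios of 1.91 (1.55 to 2.36) and 1.73 (1.44 to 2.09). Endothelium had 50.5 CPM in CKO and 50.2 CPM in WT. The CKO cells of the 4 classes thus lay within 42.6 to 50.5 CPM, and the WT cells within 24.3 to 123 CPM. Hist1h2bj had 7.12 CPM in CKO and 9.61 CPM in WT erythroid cells and 8.85 and 6.22 CPM in stromal cells, and both intervals included no difference. Hist3h2ba was nearly absent from stromal cells, with 2 CKO and 1 WT UMIs, and had 4.03 CPM (17 UMIs) in CKO and 7.53 CPM (53 UMIs) in WT progenitors.

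The linker histone genes differed among themselves. Hist1h1c had 25.1 CPM (20.6 to 30.4) in CKO and 11.9 CPM (9.52 to 14.8) in WT progenitors, a ratio of 2.11 (1.57 to 2.84), and 45.6 CPM and 14.5 CPM in endothelium, a ratio of 3.15 (1.74 to 6.15). In erythroid and stromal cells its ratios were 1.36 (1.09 to 1.70) and 1.41 (1.05 to 1.91). Hist1h1b went the other way in progenitors, with 9.49 CPM (6.78 to 12.9) in CKO and 29.4 CPM (25.5 to 33.7) in WT, a ratio of 0.323 (0.224 to 0.455). It had ratios of 0.727 (0.544 to 0.973) in erythroid and 0.706 (0.514 to 0.968) in stromal cells. Hist1h1a had 8 UMIs in CKO and 54 in WT progenitors, a ratio of 0.247 (0.102 to 0.523). Hist1h1e had 35.2 CPM in CKO and 52.3 CPM in WT erythroid cells (0.673, 0.574 to 0.788), and its intervals included 1 in the other 3 classes.

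Of the H3 genes, Hist1h3c had 10.7 CPM (8.74 to 13.0) in CKO and 4.89 CPM (3.28 to 7.02) in WT erythroid cells, a ratio of 2.19 (1.44 to 3.44). In stromal cells it had 14.3 CPM in CKO and 10.4 CPM in WT, and in progenitors 6.88 and 4.69 CPM, with intervals that included 1. Hist1h3e had 6.56 CPM in CKO and 3.46 CPM in WT stromal cells (1.90, 1.10 to 3.39). Hist1h3i, with 14 CKO and 18 WT UMIs in erythroid cells, had too few counts to place.

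The main H4 gene, Hist1h4i, was close in both libraries in 3 classes. It had 82.2 CPM in CKO and 70.7 CPM in WT erythroid cells (1.16, 1.03 to 1.31), 94.2 and 79.8 CPM in progenitors (1.18, 1.03 to 1.34) and 38.4 and 34.2 CPM in stromal cells (1.12, 0.930 to 1.35). In endothelium it had 63.6 CPM in CKO and 24.5 CPM in WT, a ratio of 2.59 (1.63 to 4.29). Hist1h4d was lower in CKO erythroid cells, at 17.3 CPM in CKO and 41.3 CPM in WT (0.419, 0.342 to 0.513), and had 9.49 CPM and 15.3 CPM in progenitors (0.619, 0.419 to 0.897). Hist4h4, the only member on chromosome 6, had 3 UMIs in CKO and 54 in WT progenitors (ratio 0.0928, 0.0186 to 0.286), while in stromal cells it had 3.43 CPM in CKO and 3.46 CPM in WT.

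Whether the genes behave as S phase genes was read within each class and library, by ranking cells on a list of 47 S phase genes (replication factors such as Mcm3 and Pcna) that holds no member, and dividing them into 3 equal ranges. Over the 4 classes, 19 of 35 measured members were at least 1.5-fold higher in the high than in the low range in CKO (background 9.91% of genes) and 4 were lower (9.09%). In WT 12 of 31 were higher (background 6.86%) and 3 lower (6.4%). A range is a cut of a continuous score and not a cell type, and members and list genes come from the same cells, so these are descriptions. Pooled over the classes, Hist1h1b had a high over low ratio of 3.69 (2.46 to 5.68) in CKO, with 17.0 CPM in the high and 4.60 CPM in the low range, and of 2.56 (1.96 to 3.38) in WT. Its ratio within erythroid cells was 2.1 (1.27 to 3.58) in CKO and 1.38 (0.778 to 2.5) in WT. Hist1h2ap had 2.12 (2.0 to 2.25) in CKO and 1.75 (1.53 to 2.0) in WT, Hist1h2ae 1.97 and 1.67, Hist1h1e 1.85 and 1.73, and Hist1h4i 1.60 and 1.41. By class the Hist1h2ap ratio was 22.8 in CKO and 4.27 in WT stromal cells, 6.31 and 6.5 in endothelium and 2.86 and 2.67 in progenitors. In erythroid cells it was 1.29 (1.2 to 1.38) in CKO and 0.802 (0.652 to 0.987) in WT, where the gene was lower in the high range. The low stromal ranges of the 2 libraries held unlike cells, as given below, so the stromal ratios are not matched between libraries.

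Some members went against the name of replication-dependent histone genes. The 4 lower members in CKO were Hist1h2bc, Hist3h2a, Hist1h1c and Hist1h4a, and the 3 in WT were Hist1h2bc, Hist4h4 and Hist1h3i. Hist1h4a had a ratio of 0.458 (0.155 to 1.23) in CKO, with 7 UMIs in the high and 13 in the low range. Hist4h4 and Hist1h3i both had 1.51 in CKO, with intervals that included 1, and in WT they had 0.508 (0.281 to 0.893) and 0.388 (0.158 to 0.87). Pooled over the classes, Hist1h2bc was lower in the high range in both libraries, with a ratio of 0.309 (0.263 to 0.363) in CKO and 0.484 (0.411 to 0.568) in WT. In progenitors it was 0.35 (0.23 to 0.522) in CKO and 1.73 (1.18 to 2.55) in WT, so that WT progenitors went the other way. Hist3h2a had 0.488 (0.372 to 0.638) in CKO and 0.960 (0.713 to 1.29) in WT, and Hist1h1c 0.649 (0.530 to 0.794) in CKO and 1.51 (1.12 to 2.03) in WT. By class Hist1h1c in CKO was at 0.586 in erythroid, 0.672 in progenitor, 0.411 in stromal and 1.57 (0.936 to 2.7) in endothelium cells. Its pooled WT value came with 3.36 (1.86 to 6.45) in progenitors, beside 1.0 in WT erythroid and 1.0 in WT stromal cells. Hist1h2bc, Hist3h2a and Hist1h1c are known from the literature, as background, to make polyadenylated messages outside S phase as well. Hist2h2be, the fourth such gene listed here, had 30 UMIs in all and could not be placed. H2B as a type, which is mostly Hist1h2bc, was lower in the pooled high range in CKO (0.520) and WT (0.618), but in progenitors it was lower in CKO at 0.565 (0.414 to 0.765) and higher in WT at 1.7 (1.29 to 2.25). H1, H2A and H4 were higher in both when pooled.

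**Figure D3:**
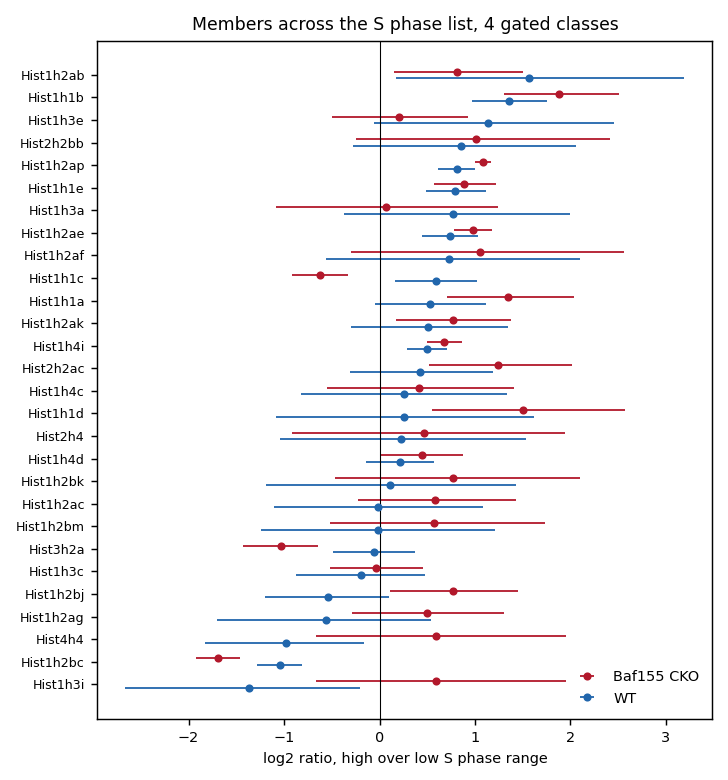
High over low S phase range on a log2 scale (x axis) for the members with at least 20 UMIs over both ranges in each library (rows), pooled over the 4 classes, with Baf155 CKO in red above WT in blue; points are ratios of library sums and bars 95% intervals. Hist1h1b lies to the right in both libraries (3.69 in CKO, 2.56 in WT) and Hist1h2bc to the left in both (0.309 and 0.484).

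The S phase pattern differed by class. In stromal cells all members together stood at 295, 610 and 982 CPM in the low, middle and high range in CKO and at 229, 275 and 401 CPM in WT. In progenitors they stood at 376, 513 and 671 CPM in CKO and 280, 380 and 525 CPM in WT. In erythroid cells the CKO values were 965, 959 and 1104 CPM and the WT values 614, 667 and 448 CPM, so that in WT the high range held the lowest level. Most of that WT fall was Hist1h2bc, which had 333 UMIs in the low and 92 in the high range, of 1193 and 915 member UMIs. In endothelium they were 405, 438 and 1152 CPM in CKO and 272, 161 and 594 CPM in WT, where a range holds 17 to 20 cells.

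Hist1h2ap showed this most plainly in stromal cells. In the low range it had 25.5 CPM (44 UMIs) in CKO and 19.1 CPM (35 UMIs) in WT, and the CKO over WT ratio of 1.34 had an interval (0.839 to 2.15) that included 1. In the middle range it had 300 CPM in CKO and 46.2 CPM in WT, a ratio of 6.49 (5.25 to 8.09), and in the high range 583 CPM and 81.4 CPM, a ratio of 7.16 (6.05 to 8.52). The S phase list itself was lower in CKO in each stromal range, at 855, 2117 and 4146 CPM in CKO and 1671, 3032 and 4976 CPM in WT, so the ranges are not matched in level. A list of 30 genes of G2 and mitosis stood at 1415 CPM in CKO and 4914 CPM in WT in the low stromal range. In the middle range it had 3887 and 3608 CPM, and in the high range 2167 and 2134 CPM. The low stromal ranges thus hold unlike cells, and values that rest on them do not compare like with like. In erythroid cells the Hist1h2ap ratio was above 1 in all 3 ranges, at 4.64 (4.01 to 5.40), 5.90 (5.09 to 6.87) and 7.47 (6.39 to 8.78), and in progenitors it was 2.37, 1.92 and 2.54. Hist1h2bc went the other way in CKO stromal cells, at 108, 32.0 and 31.2 CPM in the low, middle and high range, against 35.4, 25.5 and 27.3 CPM in WT. In progenitors its level was lower in each next range in CKO (71.3, 45.0 and 25.0 CPM) but not in WT (19.8, 19.5 and 34.2 CPM).

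**Figure D4:**
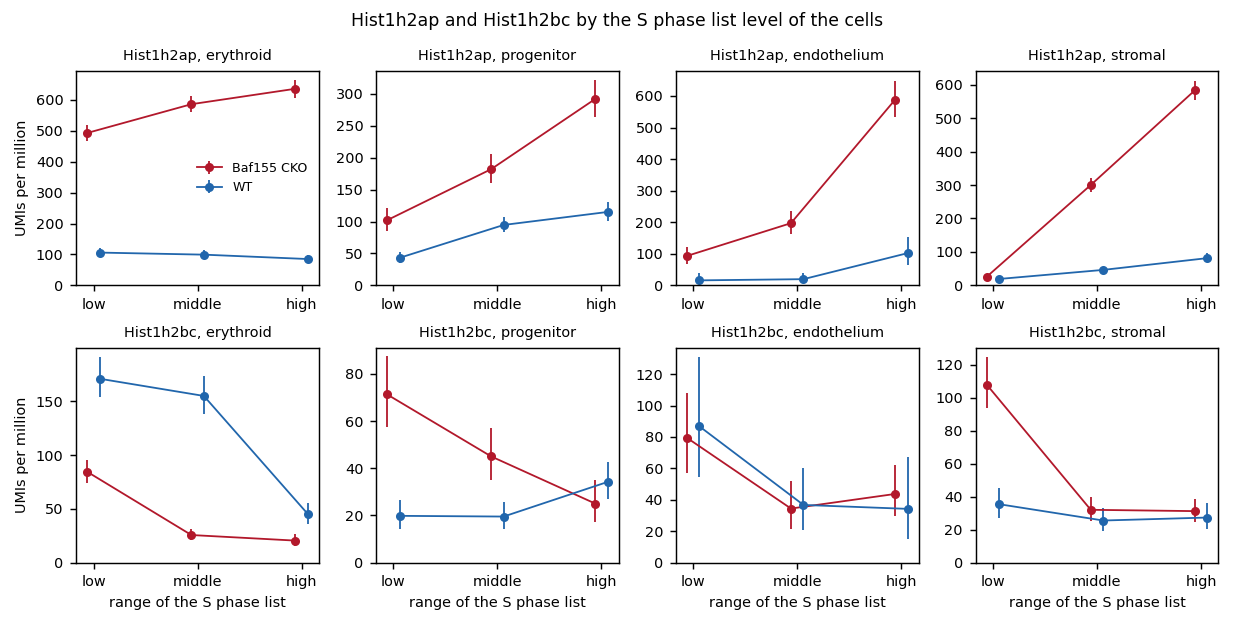
Levels of Hist1h2ap (top) and Hist1h2bc (bottom) in CPM (y axis, linear, from 0, with its own range in each panel) in the low, middle and high range of the S phase list (x axis) in the 4 classes (columns), with Baf155 CKO in red on the left and WT in blue on the right; points are library sums and bars 95% Poisson intervals. In stromal cells Hist1h2ap reaches 583 CPM in CKO and 81.4 CPM in WT in the high range, and Hist1h2bc is highest in the low range of CKO (108 CPM).

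The lists of genes around histone supply are read against the same background shares as above. Of all genes, 19.4%, 14.1%, 14.0% and 14.0% were higher in CKO in erythroid, progenitor, endothelium and stromal cells. The shares lower in CKO were 9.84%, 9.84%, 20.1% and 11.2%. Of 47 S phase genes, 20 were at least 1.5-fold higher and 0 lower in CKO erythroid cells, 0 higher and 6 lower in progenitors, 13 higher and 1 lower in endothelium, and 0 higher and 12 lower in stromal cells. Summed, the list had a CKO over WT ratio of 1.37 (1.34 to 1.40) in erythroid and 1.22 (1.17 to 1.28) in endothelium cells, above 1 as H2A was, and of 0.863 and 0.804 in progenitor and stromal cells, where H2A was higher in CKO. Set against the S phase list, member UMIs numbered 33.9 per 100 list UMIs in CKO and 26.6 in WT erythroid cells, 26.1 and 9.34 in stromal, 21.5 and 11.5 in endothelium, and 14.9 and 9.71 in progenitor cells. Hist1h2ap held 5382 of the 9464 member UMIs in CKO and 573 of the 3405 in WT erythroid cells. Without it the erythroid member ratio was 0.908, below that of the list. Hist1h2bc, with 401 UMIs in CKO and 727 in WT erythroid cells, weighed the other way. With the top member of each type left out, both genes among them, the erythroid total was higher in CKO, as given below. The erythroid direction thus depends on which of these genes are kept. In progenitor, endothelium and stromal cells the member ratio without Hist1h2ap (1.06, 1.44 and 1.33) stayed above that of the list. Rrm2, a subunit of ribonucleotide reductase, had 122 CPM in CKO and 254 CPM in WT progenitors, the lowest ratio of the list there at 0.479. Of the 19 histone mRNA processing genes in the files, 17 or 18 were measured per class, and 1, 1, 2 and 0 of them were higher and 0, 1, 2 and 3 lower in CKO erythroid, progenitor, endothelium and stromal cells. Slbp, the stem-loop binding protein, had 130 CPM in CKO and 111 CPM in WT erythroid cells, 170 and 214 CPM in progenitors, 172 and 177 CPM in endothelium, and 127 and 165 CPM in stromal cells. Casp8ap2, a component of histone locus bodies, had 28.4 CPM in CKO and 59.3 CPM in WT stromal cells (ratio 0.479), and Npat, the activator of histone genes, 12.8 CPM and 8.66 CPM in progenitors (1.48).

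Of the 24 histone chaperone genes, 3, 0, 3 and 1 were higher and 1, 2, 5 and 4 lower in CKO erythroid, progenitor, endothelium and stromal cells. The 5 lower in endothelium lay near the background share there, 20.1% of genes. Nasp, a chaperone of H3 and H4, had 251 CPM in CKO and 362 CPM in WT stromal cells (0.693). Supt16, a subunit of the FACT chaperone, had 61.5 CPM and 118 CPM there (0.523). In erythroid cells Hjurp, the chaperone of the centromeric H3 variant, had 36.1 CPM in CKO and 18.4 CPM in WT (1.96). Of the 30 genes of G2 and mitosis, 6 were higher and 0 lower in CKO erythroid cells, and 0 and 0 in progenitors. In endothelium 1 was higher and 3 lower, and in stromal cells 0 were higher and 11 lower. Among the 11 replication-independent histone genes, 4, 1, 2 and 0 were higher and 0, 2, 0 and 0 lower in the 4 classes. H3f3a, which encodes the replacement form of H3, had 2280 CPM in CKO and 935 CPM in WT endothelium (2.44) and 2469 and 1262 CPM in progenitors (1.96). H3f3b, which encodes the same protein, had 1156 and 1194 CPM in endothelium (0.968) and 1582 and 1786 CPM in progenitors (0.886).

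The levels also differed between cell classes within a library. In CKO all members stood lower in progenitors than in stromal cells (ratio 0.775, 0.737 to 0.816) and in WT higher (1.31, 1.23 to 1.39). Single members at least 1.5-fold higher in progenitors numbered 3 of 30 in CKO (background 26.5% of genes) and 7 of 31 in WT (25.2%), and 13 of 30 (33.2%) and 8 of 31 (32.6%) were lower. H4 was higher in progenitors in both libraries, by a ratio of 1.76 in CKO and 1.87 in WT, and so was Hist1h4i, at 2.45 and 2.33. Hist1h2ap differed in direction, with a ratio of 0.568 (0.524 to 0.616) in CKO and 1.73 (1.5 to 2.0) in WT. In CKO this gene held 817 of the 2206 member UMIs of progenitors and 2389 of the 4730 of stromal cells, so it weighs heavily in the CKO sum. Hist3h2ba had 53 UMIs in WT progenitors and 1 in WT stromal cells, a ratio of 43.5 with a wide counting interval (7.48 to 1752).

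The small classes are given as levels. Endoderm, which makes the serum proteins of the yolk sac, had the highest H2B level, 179 CPM (100 to 295) in 3 CKO cells and 359 CPM (319 to 402) in 31 WT cells. There Hist1h2bc had 10 UMIs in CKO and 285 in WT (119 and 346 CPM), and H2B made up 35.7% of the member UMIs in CKO and 62.3% in WT. Megakaryocytes had 305 CPM of H2A and 82.2 CPM of H1 in CKO, and 329 CPM and 227 CPM in the 6 WT cells. Hist1h2ap stood at 234 CPM (211 to 258) in CKO and 172 CPM (125 to 231) in WT megakaryocytes. In macrophages it stood at 92.5 CPM (65.8 to 127) in CKO and 84.7 CPM (69.6 to 102) in WT. The intervals of the libraries overlapped in both of these classes.

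Cells of the CKO library were also divided by Smarcc1 itself, since not all had lost its RNA. In CKO stromal cells Hist1h2ap had 348 CPM (331 to 367) in the 178 cells with 0 Smarcc1 UMIs and 383 CPM (352 to 416) in the 49 cells with at least 2. In erythroid cells the values were 579 CPM (562 to 597) in 206 cells with 0 and 555 CPM (500 to 616) in 13 cells with at least 2, and in progenitors 139 CPM (121 to 159) in 38 cells and 203 CPM (183 to 224) in 34. Cells with 0 were shallower in all 3 classes, with median depths of 20898 and 29227 UMIs in stromal, 33128 and 54185 in erythroid, and 38452 and 57557 in progenitor cells with 0 and with at least 2. The S phase list was also lower in the cells with 0 than in those with at least 2. It stood at 3063 and 3747 CPM in progenitors, 2538 and 2816 CPM in stromal cells, and 2948 and 3052 CPM in erythroid cells. Cells between these limits were in neither group. A cell with 0 UMIs may still carry the RNA. Both groups of CKO cells lay above the WT levels of the same class given above.

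Promoter sequences, from RefSeq on GRCm38.p6, were found for 44 of the 53 members. In the 250 bases before the start, CCAAT (or ATTGG on the other strand) was present in 36 (81.8%), against 34.5% of 27025 promoters of the same length, and TATAAA (or TTTATA) in 24 (54.5%), against 13.0%. Matches of the 2 motifs were counted apart even where they overlap, and a match is not a binding site. Members that start back to back share much of this stretch, so the 44 are not all separate sequences and some matches count for both genes. The stretches before the starts of the 2 H2A genes with most UMIs are shown because these genes share a histone type and differ in ratio, with CCAAT and TATAAA matches on either strand in capitals, both read on the minus strand. The first is chr13:21833508-21833725 (218 bases) and the second chr13:23571221-23571395 (175 bases), which reaches to the start of the divergent neighbour Hist1h2bg.
Hist1h2ap: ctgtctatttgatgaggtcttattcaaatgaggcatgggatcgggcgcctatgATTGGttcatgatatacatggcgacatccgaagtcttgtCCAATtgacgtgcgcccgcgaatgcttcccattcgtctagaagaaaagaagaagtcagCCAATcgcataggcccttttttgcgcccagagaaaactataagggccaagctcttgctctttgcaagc
Hist1h2ae: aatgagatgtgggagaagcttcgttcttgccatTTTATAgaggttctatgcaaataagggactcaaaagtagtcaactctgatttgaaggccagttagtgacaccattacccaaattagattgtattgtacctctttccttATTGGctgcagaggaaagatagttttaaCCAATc
Hist1h2ap had 3 CCAAT matches and 0 TATAAA matches in this stretch, and Hist1h2ae 2 and 1.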

How the data were processed

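For each of the 2 libraries the authors deposited a matrix of UMI counts, genes by barcodes, over the same 33456 genes. The submitters' processing notes name Cell Ranger, Seurat and GRCm38, and no source used here says how reads shared by histone genes were counted. Barcodes needed 500 detected genes, and those above 10% mitochondrial UMIs were dropped (18 CKO and 28 WT), and doublets called with Scrublet at an expected rate of 1% (6 CKO, 3 WT) were removed. A marker counted in a cell with at least 2 UMIs. A cell took the class with the highest share of its markers present if that share was at least 25% and led the next by at least 10 points. Globins were not gate markers, and this gate was set after seeing the data. Sums of counts per class and library were divided by all UMIs of the class (CPM). Ratios were called at 1.5-fold where both libraries together held 20 UMIs or more, and log2 ratios had 0.5 counts added. The calculation was tested on simulated data. Gene IDs were matched to GENCODE M21 (97.9% found), and amino acid sequences are not used here. Members and gene lists were chosen with earlier results of these data known. Named members are the 3 with most UMIs of each type, those above 10% of a type, and the 2 highest and 2 lowest ratios per class among members with at least 50 UMIs. Genes of the other lists were named after their values were seen. Alternatives tried were kept doublets, stricter cell filters and gate, CPM without globins, other UMI and fold limits, a mean over cells, other S phase ranges and other thinning depths. The scripts ran under Python 3.11.15 with scanpy 1.11.5 for doublets, scipy 1.17.1 for intervals, and numpy 2.4.6, pandas 2.3.3 and matplotlib 3.10.9.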

Additional observations from a re-analysis of the deposited data

Results flagged for a closer look

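Hist1h2bc had opposite CKO over WT differences in the cell classes. Its ratio was 0.347 (0.307 to 0.393) in erythroid cells and 1.91 (1.55 to 2.36) in progenitors, and 1.73 (1.44 to 2.09) in stromal cells, with every interval beyond no difference. With 1 library per genotype the difference between classes was not tested. In erythroid cells the ratio was below 1 in all 3 ranges of the S phase list (0.492, 0.165 and 0.454), while in progenitors it was 3.60 and 2.31 in the low and middle range and 0.731 (0.476 to 1.10) in the high range.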

How the results depend on the processing

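No paired analysis was possible because there is 1 library per genotype. Of 643 recomputed values of 141 results, 566 stayed within the interval or 1.5 times of the count first given, or near the list median first given. A further 71 moved beyond that, and 6 changed direction from a value whose interval excluded no difference. Where the first interval included no difference, a change of side was not counted among the 6. Values here are log2 CKO over WT unless said otherwise. Without Hist1h2ap, chosen after seeing the data, all members gave -0.14 in erythroid, 0.09 in progenitor, 0.52 in endothelium and 0.41 in stromal cells, and H2A -0.021 in progenitors. Without the top member of each type they gave 0.21, -0.13, 0.54 and 0.43, with 0.032 for H1 in erythroid cells and -0.021 for H2A in progenitors. With only CKO cells of 0 Smarcc1 UMIs, also chosen after seeing the data, all members gave 0.24 in progenitors and 0.95 in endothelium, Hist3h2a gave -0.32 in progenitors, and 3 of 8 members were higher in endothelium (background 12.7% of genes). The mean over cells gave 0.73 in erythroid and 0.96 in stromal cells. The high over low S phase ratio (log2) was -0.64 in WT erythroid cells without globin UMIs, and with 2 equal ranges of cells in place of 3 it was 0.64 in CKO progenitors, 1.07 in CKO endothelium, 1.15 in CKO and 0.51 in WT stromal cells. With 100 UMIs required, members higher and lower in CKO numbered 4 and 2 in erythroid, 3 and 2 in progenitor, 3 and 0 in endothelium and 4 and 0 in stromal cells. At 2-fold, 6 of 36 were higher in erythroid (background 8.02%) and 7 of 34 in stromal cells (6.2%), and 5 of 28 were lower in progenitor (4.13%), 0 of 9 in endothelium (8.44%) and 1 of 34 in stromal cells (3.66%). Under the stricter gate 0 of 9 were lower in endothelium (19.0%). Depth limits single members: 28 of the 53 had fewer than 100 UMIs over both libraries.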

Other observations

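Of the 12 pairs of H2A and H2B genes that start back to back within 1000 bases of each other, counts were often unequal. Hist1h2ap had 12181 UMIs over both libraries and Hist1h2br, which starts 235 bases away, had 0. Hist1h2ae had 2452 and Hist1h2bg, 175 bases away, had 77, while Hist1h2bc had 2761 and Hist1h2ac, 250 bases away, had 153. Hist1h2br shares 88.7% of its 50-base windows with other genes, so a count of 0 does not show that it is not transcribed.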
